A study of Homo sapiens with 12 samples.

Results

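Divergent promoters, the short stretches of DNA from which a pair of protein-coding genes is transcribed in opposite directions, were examined in the ATAC-seq peaks of 3 human acute myeloid leukaemia (AML) lines. A pair was taken where protein-coding genes on opposite strands of chromosomes 1 to 22 pointed away from each other with start sites at most 1000 bp apart, and its window ran from 200 bp beyond one start site to 200 bp beyond the other. Of 18783 protein-coding genes with a known strand, 1941 (10.3%) lay in such pairs. They formed 984 pairs with 957 distinct windows, since 27 pairs shared a window with another pair. The start sites of a pair were a median of 173 bp apart, with quartiles of 99 and 291 bp and a range of 1 to 995 bp. The 16751 promoters of the remaining protein-coding genes served for comparison, each with a window from 373 bp upstream to 200 bp downstream of its start site, so that both kinds of window had a median length of 574 bp. MOLM13 and MV4-11 carry a rearranged MLL1, a histone methyltransferase gene, while OCI-AML3 expresses a mutant form of the nucleolar protein NPM1. Each line was profiled after 16 h with 500 nM of VTP50469, a Menin inhibitor that blocks the binding of Menin to MLL1, and as control. The 6 groups held 2 libraries each, all from bulk cryopreserved cells, and each of the 12 libraries came with peaks called separately, on hg38. Each line is a single established culture, so the lines are not replicates of a genotype.

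In a divergent promoter a single nucleosome-depleted stretch serves RNA polymerase in both directions, so that the genes on either side share their transcription factor sites. Such promoters are rich in CpG and usually lack a TATA box, and their genes often belong to housekeeping functions such as DNA repair, mitochondrial translation and protein folding. In ATAC-seq the transposase Tn5 cuts accessible DNA, and an active promoter appears as a peak whose summit lies over the nucleosome-depleted stretch.

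The stretches between the start sites of 8 pairs show what such a promoter looks like, 3 from textbook pairs, 2 from the strongest and 2 from the weakest peaks of the study and 1 from a textbook pair without a peak. HSPD1/HSPE1, the mitochondrial chaperonin genes, lies at chr2:197500274-197500379. SARS2/MRPS12, a mitochondrial seryl-tRNA synthetase and a mitochondrial ribosomal protein, lies at chr19:38930763-38930944, and RECQL/GOLT1B, a DNA helicase and a Golgi transport protein, at chr12:21501635-21501789. NMBR/VTA1, a neuromedin B receptor and an endosomal sorting protein, lies at chr6:142147122-142147263, and XRRA1/SPCS2, the second gene of which encodes a signal peptidase subunit, at chr11:74949091-74949266. SURF1/SURF2 lies at chr9:133356487-133356550 and ATP6V1G2/NFKBIL1 at chr6:31546742-31546851. COL4A1/COL4A2, the basement membrane collagen genes, lies at chr13:110307157-110307284. Sequences are RefSeq, GRCh38.p14, on the + strand with the first-named gene pointing left, and capitals mark the motifs CCGGAAG (ETS factors), CCAAT (NFY), GGGCGG (SP and KLF factors), GCATGCG (NRF1), AAGATGG (YY1), TGACGTCA (CREB and ATF factors), CACGTG (E-box) and the TATA box core TATAAA on either strand.
HSPD1/HSPE1: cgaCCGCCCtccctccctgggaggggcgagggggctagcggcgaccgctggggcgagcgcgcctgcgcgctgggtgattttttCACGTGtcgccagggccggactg
SARS2/MRPS12: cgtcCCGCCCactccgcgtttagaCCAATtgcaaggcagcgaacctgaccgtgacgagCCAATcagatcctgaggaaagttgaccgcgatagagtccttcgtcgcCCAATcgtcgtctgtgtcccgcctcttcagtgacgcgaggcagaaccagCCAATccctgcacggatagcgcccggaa
RECQL/GOLT1B: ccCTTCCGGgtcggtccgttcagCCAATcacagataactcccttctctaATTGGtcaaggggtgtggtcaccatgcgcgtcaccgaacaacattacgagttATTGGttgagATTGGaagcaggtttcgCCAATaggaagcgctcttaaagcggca
NMBR/VTA1: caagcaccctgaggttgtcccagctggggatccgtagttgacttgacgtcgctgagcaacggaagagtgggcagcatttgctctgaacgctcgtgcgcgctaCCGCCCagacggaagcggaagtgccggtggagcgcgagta
XRRA1/SPCS2: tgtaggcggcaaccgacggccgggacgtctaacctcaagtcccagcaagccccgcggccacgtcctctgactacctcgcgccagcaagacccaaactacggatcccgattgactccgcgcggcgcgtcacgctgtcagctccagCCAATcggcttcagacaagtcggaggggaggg
SURF1/SURF2: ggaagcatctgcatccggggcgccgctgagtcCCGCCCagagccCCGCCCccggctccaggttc
ATP6V1G2/NFKBIL1: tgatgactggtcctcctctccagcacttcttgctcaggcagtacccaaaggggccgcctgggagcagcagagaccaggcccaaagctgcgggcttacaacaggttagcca
COL4A1/COL4A2: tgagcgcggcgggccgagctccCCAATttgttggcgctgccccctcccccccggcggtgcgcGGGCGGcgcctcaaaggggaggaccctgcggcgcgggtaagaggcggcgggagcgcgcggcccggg

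RECQL/GOLT1B held 5 CCAAT motifs and 1 ETS motif in 155 bases, and SARS2/MRPS12 held 4 CCAAT motifs in 182 bases. ATP6V1G2/NFKBIL1 held none of the 8 motifs and only 2 CpG in 110 bases. COL4A1/COL4A2, which had no peak, held 20 CpG in 128 bases and had a GC content of 79.7%. A sequence was at hand for 591 of the 650 windows whose starts were at most 250 bp apart (90.9%). These stretches had a median length of 123 bases, a median GC content of 67.6% with quartiles of 60.3% and 73.5%, and a median of 10.3 CpG per 100 bases. The ETS motif was in 23% of the stretches and in 14.3% of all 15100 promoter sequences, CCAAT in 29.3% of stretches and 36.0% of promoters, and the SP motif in 54.7% and 58.7%. The remaining shares of stretches, each followed by that of all promoters, were 6.60% and 5.07% for NRF1, 1.52% and 6.28% for YY1, 3.21% and 2.62% for CREB, 8.29% and 8.71% for the E-box and 3.05% and 9.83% for TATAAA. The promoter sequences run 250 bases before and 50 after a start and are longer than most stretches, so the shares are given side by side and not compared. None of the 8 motifs was found in 115 stretches (19.5%). A comparison of base composition with the other promoters was void, because only 79.7% of them had a sequence.

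The number of peaks per library was 79373 to 103034 for MOLM13 libraries, 115689 to 145364 for MV4-11 libraries and 68670 to 94529 for OCI-AML3 libraries, and sequencing totals were unknown. Peaks stood within 1000 bp of the start sites of between 4 and 8 of 8 myeloid marker genes in each library. SPI1, CEBPA, LYZ and FLT3 were marked in all 12, ITGAM in 10, MPO in 8, CSF3R in 7 and CD33 in 1. Peaks stood within the same distance of 0 to 1 of 4 T cell, 0 to 2 of 4 B cell and 0 to 1 of 4 erythroid marker genes. Of the B cell markers, PAX5 had a peak in 8 libraries, CD79A in 7 and MS4A1 in none.

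Divergent windows carried a peak far more often than other promoters in all 12 libraries. Between 91.8% and 94.7% of divergent windows overlapped a peak (median 93.1%), against 49.1% to 55.6% of other promoters (median 51.6%), and the mean difference was 41.0 percentage points (SD 1.26, n = 12; exact sign-flip permutation test, two-sided, p = 0.000488, the smallest that 12 libraries can give). By line, MOLM13 libraries differed by 41.6 ± 0.624 points, MV4-11 libraries by 39.5 ± 0.588 and OCI-AML3 libraries by 41.9 ± 0.819 (SD, n = 4 each). In bulk cells, fewer cells with an open promoter and less signal per cell cannot be told apart, and a window that was not called need not be closed. Of the divergent windows, 847 (88.5%) were called in all 12 libraries and 30 (3.13%) in none, against 7008 (41.8%) and 5848 (34.9%) of the other promoters. Promoters of the comparison set with an opposite start site of any gene type within 1000 bp upstream lay between, with 70.6% of 1427 called in all 12 libraries, against 39.2% of 15324 that stood alone. The comparison set was not limited to expressed genes.

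The peaks at divergent windows were also stronger and wider. The strongest peak of a window was scored by the rank of its fold over the local background among all peaks of its library, turned into a normal score on which 0 is the middle peak. The median score was between 1.33 and 1.56 at divergent windows with a peak, against 1.03 to 1.23 at other promoters with a peak. In ranks, the middle divergent peak exceeded 90.9% to 94.1% of the peaks of its library, and the middle peak of other promoters 84.8% to 89.2%. The difference in score was 0.32 (SD 0.026, higher in 12 of 12 libraries; exact sign-flip permutation test, two-sided, p = 0.000488). The summed width of the peaks over a divergent window had a median of 589 to 865.5 bp, against 482 to 730 bp at other promoters, which is 122 bp more (SD 13.6, wider in 12 of 12 libraries; exact sign-flip permutation test, two-sided, p = 0.000488). Peaks were narrowest in OCI-AML3, where the stretch over divergent windows was 589 to 643.5 bp, and the excess over other promoters was 107 bp there, 126 bp in MOLM13 and 133 bp in MV4-11. Libraries of 1 line are not independent, and every line gave the same direction for all 3 measures.

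**Figure D1:**
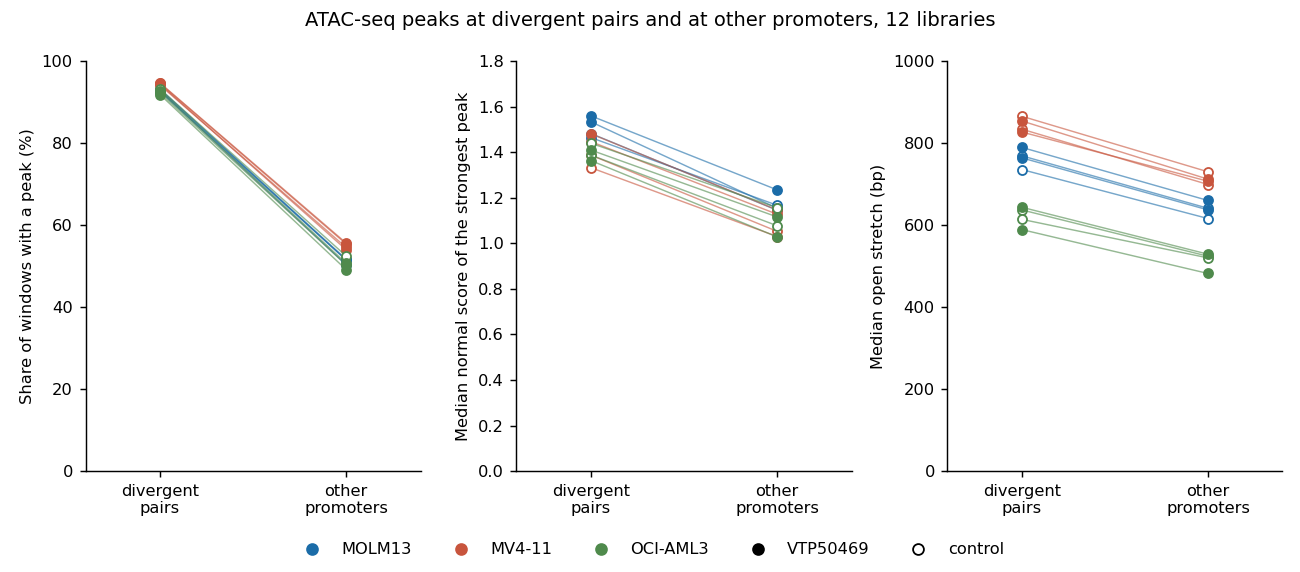
Share of windows with a peak (%), median normal score of the strongest peak and median open stretch (bp) at divergent pairs (left in each panel) and other promoters (right), with a line joining the values of each of the 12 libraries, filled for VTP50469 and open for control. All 12 lines fall to the right in each panel, with shares of 91.8% to 94.7% at divergent pairs and 49.1% to 55.6% at other promoters.

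Most divergent promoters were covered by a single peak spanning both start sites. Among windows with a peak, 79.1% to 88.8% had 1 peak over both start sites (median 86.3%), 2.35% to 4.87% had a separate peak over each, 7.55% to 14.2% had a peak over 1 start site only and 0.662% to 1.93% had a peak over neither. A single peak covered both starts in all 12 libraries at 589 of the 957 windows and in no library at 116. These values differed with the distance between the starts. The median share with 1 peak over both was 93.9% at 0 to 100 bp, 93.1% at 101 to 200 bp, 89.4% at 201 to 300 bp, 83.9% at 301 to 400 bp, 65.4% at 401 to 600 bp and 29.8% at 601 to 1000 bp. A longer window needs a wider peak to hold both starts, so this order follows in part from the measure itself. At 601 to 1000 bp a separate peak over each start was seen in a median of 29.2% of the windows with a peak and a peak over 1 start only in 40.4%. The share of windows with any peak changed less, with medians of 90.0%, 91.9%, 96.5%, 96%, 98.7% and 92.2% from the shortest to the longest spacing, among 244, 298, 185, 100, 79 and 51 windows. Of the 30 windows that were never called, 11 had starts at most 100 bp apart and 14 had starts 101 to 200 bp apart. The open stretch had medians of 685 bp at the shortest and 936 bp at the longest spacing.

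**Figure D2:**
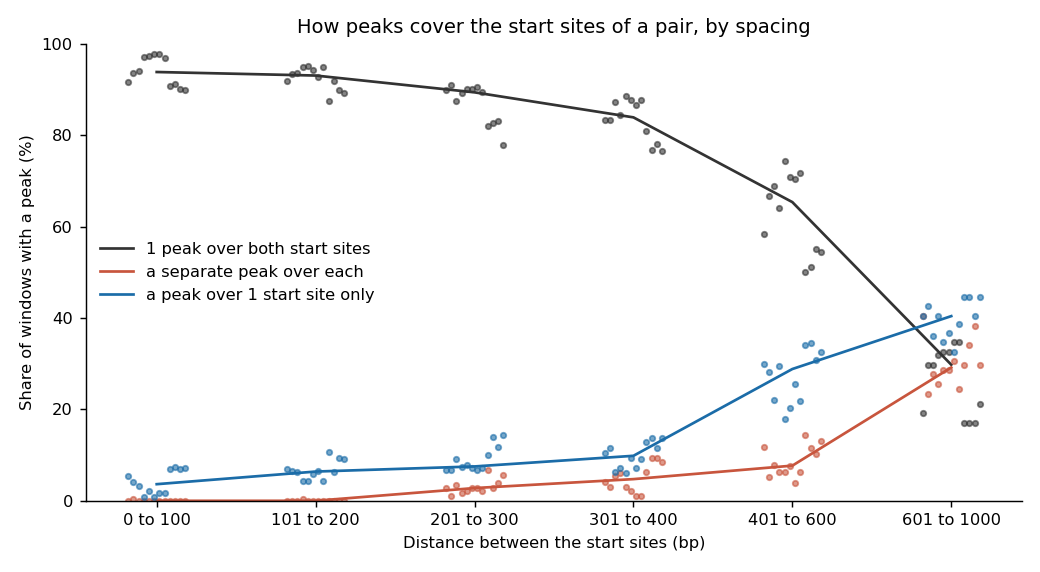
Share of divergent windows with a peak (%) that had 1 peak over both start sites, a separate peak over each, or a peak over 1 start only, by the distance between the start sites (bp). Points are the 12 libraries, with MOLM13 left, MV4-11 in the middle and OCI-AML3 right within a bin, and lines join the medians: 93.9% had 1 peak over both at 0 to 100 bp and 29.8% at 601 to 1000 bp.

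At the limit of the rule the windows did not change abruptly. The 12 windows with starts 901 to 1000 bp apart were called in all 12 libraries, with a median score of 1.18. The 8 windows with starts 1001 to 1100 bp apart, which the rule leaves out, were also called in all 12, with a median score of 1.06. Just inside lay SMIM7/TMEM38A at 995 bp and CASKIN2/TSEN54 at 991 bp, and just outside lay USH1G/OTOP2 at 1018 bp and PRADC1/CCT7 at 1024 bp. The textbook pair PSMB1/TBP, a proteasome subunit and the TATA-binding protein, stood outside at 1062 bp.

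The summits of the strongest peaks spread widely around the middle of the pair. Between 48.9% and 54.8% of summits fell between the start sites, 21.0% to 25.9% inside the gene on the minus strand and 23.4% to 26.8% inside the gene on the plus strand. Neither direction was favoured by more than a few bases, since the median summit was −7.5 to 3.75 bp from the midpoint, counted towards the plus-strand gene. Regardless of direction, the median distance of a summit from the midpoint was 93.5 to 105.5 bp. Within 100 bp of the midpoint lay 48.0% to 51.7% of the summits, and within 100 bp of the nearer start site 59.0% to 61.1%. The latter range can cover more bases, since a pair has a start site on either side. At other promoters the median summit lay 37 to 49 bp upstream of the start site, 60.5% to 63.9% lay upstream, and 43.6% to 44.9% lay within 100 bp of the start. The distances at the 2 kinds of promoter are measured from different points and were not tested against each other.

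**Figure D3:**
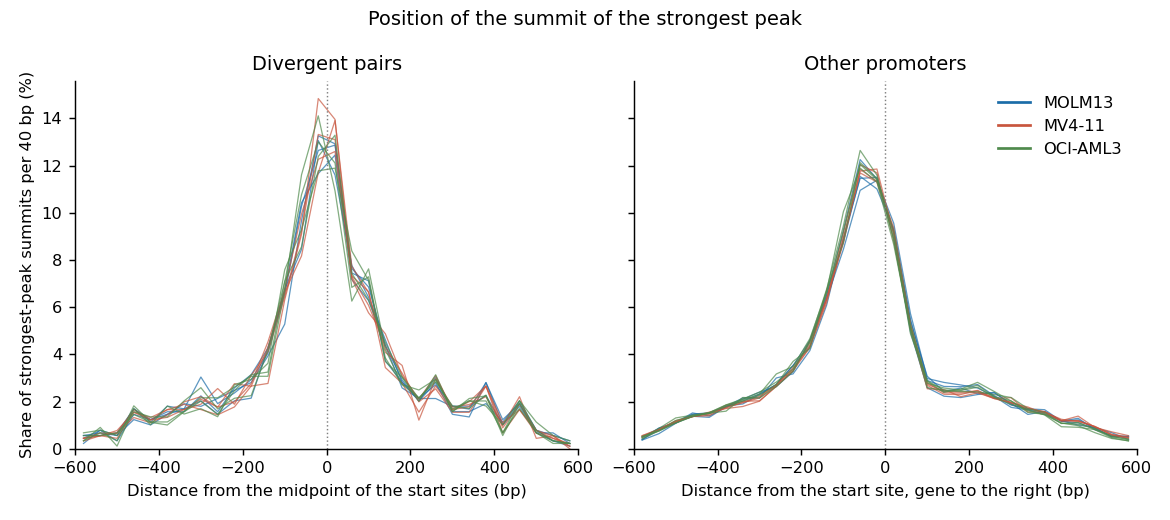
Share of the strongest-peak summits per 40 bp (%) against the distance (bp) from the midpoint of the start sites of divergent pairs (left) and from the start site of other promoters, with the gene to the right (right), 1 line per library, coloured by cell line. The curves of the divergent pairs are centred near 0, which follows from counting by genome strand. Those of other promoters, counted by the strand of the gene, peak upstream of the start site, with a median summit 37 to 49 bp before it.

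Of 16 textbook divergent pairs, 11 were found by the rule and 10 of these were called in all 12 libraries. HSPD1/HSPE1 had folds of 12.8 and 14.5 with VTP50469, against 9.55 and 11.3 in control, in MOLM13, of 15.3 and 12.5 for treated and 12.6 and 12 for control MV4-11 libraries, and of 12.2 and 15.3 for treated and 14.5 and 13.4 for control OCI-AML3 libraries. The treated MOLM13 libraries exceeded the controls there, and the groups overlapped in the other lines. Folds were not normalised between libraries. In MOLM13 the median fold of all divergent windows was itself 11.7 and 13.1 with VTP50469, against 11.0 and 11.7 in control. The median open stretch of HSPD1/HSPE1 was 979 bp. NPAT/ATM, a histone gene activator and the kinase that senses DNA breaks, had folds between 11.3 and 15.2 and a stretch of 981 bp. SARS2/MRPS12 had folds between 10.4 and 16.3, and RECQL/GOLT1B, between 12.9 and 17.4, stood above 97.7% of peaks. TK1/AFMID, with thymidine kinase, TAP1/PSMB9, with an antigen peptide transporter and an immunoproteasome subunit, TMEM258/FEN1, with a flap endonuclease, PRKDC/MCM4, with a DNA repair kinase and a helicase subunit, and SIRT3/PSMD13, with a mitochondrial deacetylase and a proteasome subunit, had median folds of 13.5, 12.3, 12.2, 11.7 and 10.0. SURF1/SURF2, the first gene of which encodes a cytochrome c oxidase assembly factor, was the weakest window called in all 12 libraries. Its folds were 3.55 to 6.88, its stretch was 180 bp and its mean score exceeded 29.7% of peaks. COL4A1/COL4A2 was called in none of the 12. Among those that did not meet the rule were PPAT/PAICS and BTD/HACL1, with the start sites used here.

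Strength was high over most of the pairs. Among the 847 windows called in all 12 libraries, 573 had a mean score above the 90th percentile of peaks and 6 lay below the middle peak, with a median at the 93.6th percentile. The strongest were NMBR/VTA1, PCLAF/TRIP4, XRRA1/SPCS2, CALR3/C19orf44 and C19orf47/PLD3, at the 99.7th to 99.8th percentile. NMBR/VTA1 had folds of 19.6 and 20.8 with VTP50469, against 19.6 and 20.7 in control, in MOLM13, of 18.1 and 18.3 for treated and 20.0 and 22.2 for control MV4-11 libraries, and of 13.5 and 22.6 for treated and 15.7 and 21.5 for control OCI-AML3 libraries. PCLAF, in the next pair, encodes a factor that binds the DNA clamp PCNA. The open stretch of these 5 pairs, 398.5 to 572.0 bp, was shorter than the 766.5 bp of the middle library of all divergent windows. The weakest after SURF1/SURF2 were ATP6V1G2/NFKBIL1, RAB24/PRELID1, NAT9/SLC38A12 and ABHD14B/ABHD14A, with median folds of 5.22, 5.73, 6.09 and 5.87. The score of a window varied over the 12 libraries with a median SD of 0.31, and that of other promoters called in all 12 with 0.33.

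The pairs held many genes of basic cell functions, and windows of most of these lists were called throughout. Called in all 12 libraries were 60 of 63 windows with a mitochondrial gene, 34 of 35 with a DNA replication or repair gene, 31 of 32 with a splicing gene or RNA helicase, 24 of 24 with a cell cycle gene, 16 of 16 on the ribosomal protein list, 9 of 9 on the proteasome list, 7 of 7 with an aminoacyl-tRNA synthetase and 5 of 5 on a short list of chromatin regulators. Beside these counts, 88.5% of all divergent windows were called throughout. Genes were put on the lists by symbol, and some do not belong by function. The ribosomal protein list also held TUBD1/RPS6KB1, with a kinase, and the proteasome list PSME3IP1/RSPRY1, with a protein that binds a proteasome activator. Other promoters with genes of the same lists were also called throughout more often than the 41.8% of all other promoters, with 147 of 183 for mitochondrial genes, 65 of 74 for DNA replication and repair, 82 of 101 for splicing and RNA helicases, 61 of 70 for the cell cycle, 69 of 74 for ribosomal proteins, 33 of 40 for the proteasome, 25 of 26 for aminoacyl-tRNA synthetases and 58 of 73 for chromatin regulators. RARS2/ORC3, a mitochondrial arginyl-tRNA synthetase and an origin recognition subunit, was among the stronger ones with folds of 15.5 to 23.8. PSMA2/MRPL32, a proteasome subunit and a mitochondrial ribosomal protein, had folds of 13.5 to 20.8, and PSMA7/SS18L1 only 5.24 to 10.1. The 13 windows of replication-dependent histone genes, most of them H2A/H2B pairs, were weaker, with 10 called in all 12 libraries and a median of these 10 at the 84.6th percentile, against the 93.6th for all divergent windows called throughout. H2AC1/H2BC1, a testis histone pair, was called in 1 library only, and H2AC15/H2BC15 had folds of 10.5 to 14.9. Histone genes have close copies and the handling of reads with several matches was not given in the sources used here, so their values are uncertain. Of 28 windows with a zinc finger gene, 21 were called in all 12 libraries. No pair held a gene of the list of MLL1 and MLL fusion targets, of which 21 promoters stood in the comparison set.

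The 30 windows without a peak in any library included pairs known from other tissues. The basement membrane collagen pairs COL4A1/COL4A2 and COL4A4/COL4A3, the olfactory receptors OR11A1/OR2H1, the oxidases and their maturation factors DUOX2/DUOXA2 and DUOXA1/DUOX1, the skin gene pair SPRR2G/LELP1 and the sperm gene pair PLCZ1/CAPZA3 were among them. Also never called were THPO/CHRD, with the megakaryocyte growth factor thrombopoietin, FUT1/FGF21, with a hepatic hormone, and the imprinted pair SGCE/PEG10. BOLA2B/SLX1A and PARG/TIMM23B have near-identical copies elsewhere in the genome, so the lack of a peak there is uncertain. A tissue-restricted gene in the pair did not always go with a missing peak: COL5A2/WDR75, a fibrillar collagen and a ribosome biogenesis factor, was called in all 12 libraries with folds of 8.58 to 14.0.

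The motifs between the starts were set beside the calls as a description. Of the 136 stretches with an ETS motif, 132 (97.1%) were called in all 12 libraries, against 83.7% of those without. The shares were 92.5% with and 84.4% without CCAAT, and 66.7% with and 87.4% without TATAAA, the last among only 18 stretches. For each of the 8 motifs but TATAAA the share was higher with than without it. No stretch with the ETS, NRF1, YY1, CREB or E-box motif was among the 21 never called of 591. These motifs were in 136, 39, 9, 19 and 49 stretches, and for the small sets few or none of the 21 would be looked for. The median strength was lower with than without the SP motif (percentiles of 91.8 and 93.7), the E-box (91.0 and 93.0) and TATAAA (84.6 and 93.2). It was higher with the ETS, CCAAT, NRF1, YY1 and CREB motifs. These shares were not tested, and a longer stretch has more room for a motif.

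A peak was seen in every library of some lines and in none of another at 14 divergent pairs. In MV4-11 alone, 7 windows (0.731%) were called in all 4 libraries, against 84 (0.501%) of the other promoters. The MV4-11 libraries also had the most peaks, at least 115689 each against at most 103034 in the other lines, and the part of this in the calls was not tested. ZNF829/ZNF568, a pair of zinc finger genes, had the highest folds of these, 14.4 and 13.1 with VTP50469 and 15.1 and 16.0 in control, and no peak in the 8 libraries of MOLM13 and OCI-AML3. The others were MYEF2/CTXN2, ZKSCAN4/NKAPL, OBSL1/INHA, NFKBID/HCST, RHBDF1/MPG and CCDC78/HAGHL. In OCI-AML3 alone 1 window (0.104%) was called, GLIS3/SLC1A1, with folds of 4.39 and 3.95 with VTP50469 and 6.89 and 4.68 in control, against 44 (0.263%) of the other promoters. No window was called in MOLM13 alone, against 15 (0.0895%) of the other promoters. All libraries of both MV4-11 and OCI-AML3 and none of MOLM13 called 5 windows (0.522%), against 90 (0.537%) of the other promoters: ZNF461/ZNF567, PROSER1/NHLRC3, TIGD7/ZNF75A, SEPTIN10/SOWAHC and HSPA1L/HSPA1A. HSPA1A has a near-identical copy, so the last is uncertain. SEPTIN10/SOWAHC, with a septin gene, had folds of 5.54 and 6.06 with VTP50469 and 7.24 and 6.36 in control in MV4-11, and of 12.2 and 11.1 with VTP50469 and 11.3 and 10.8 in control in OCI-AML3. MRE11/C11orf97, the first gene of which encodes the nuclease of the break repair complex, was called in all libraries of MOLM13 and OCI-AML3 and in none of MV4-11, with folds of 4.80 to 7.46. That pattern held for 1 divergent window (0.104%) and 20 other promoters (0.119%). No divergent window was called in MOLM13 and MV4-11 only, against 66 (0.394%) of the other promoters.

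No change in the share of divergent windows with a peak was detected with VTP50469. The share was 92.6% and 93.0% with VTP50469, against 92.8% and 93.2% in control, in MOLM13, 94.4% and 94.6% in treated and 94.1% and 94.7% in control MV4-11 libraries, and 92.8% and 91.8% in treated and 92.3% and 93.2% in control OCI-AML3 libraries. Treated and control libraries overlapped in each line, and the mean difference over the lines was −0.192 points (two-sided exact permutation test with labels shuffled within a line, p = 0.481, where 216 assignments allow a smallest p of 0.00926). The median score of the divergent windows was 1.56 and 1.53 with VTP50469, against 1.46 and 1.48 in control, in MOLM13, 1.45 and 1.48 in treated and 1.39 and 1.33 in control MV4-11 libraries, and 1.41 and 1.36 in treated and 1.39 and 1.44 in control OCI-AML3 libraries. The treated libraries exceeded the controls without overlap in MOLM13 and MV4-11, and the groups overlapped in OCI-AML3. Other promoters moved alike in MV4-11, with median scores of 1.13 and 1.15 in treated and 1.05 and 1.03 in control libraries. As a difference to other promoters of the same library, treated and control libraries overlapped in each line, and the change was 0.0351 for MOLM13, 0.00834 for MV4-11 and 0.0177 for OCI-AML3, with a mean of 0.0204 (exact permutation p = 0.185). The mean difference at the divergent windows themselves, 0.05, did not pass (two-sided exact permutation test with labels shuffled within a line, p = 0.0833). It passed without OCI-AML3 control library 2 (0.06, exact permutation p = 0.037), without OCI-AML3 VTP50469 library 2 (0.06, exact permutation p = 0.037) and with peaks of a −log10 q of at least 5 (0.05, exact permutation p = 0.0463).

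**Figure D4:**
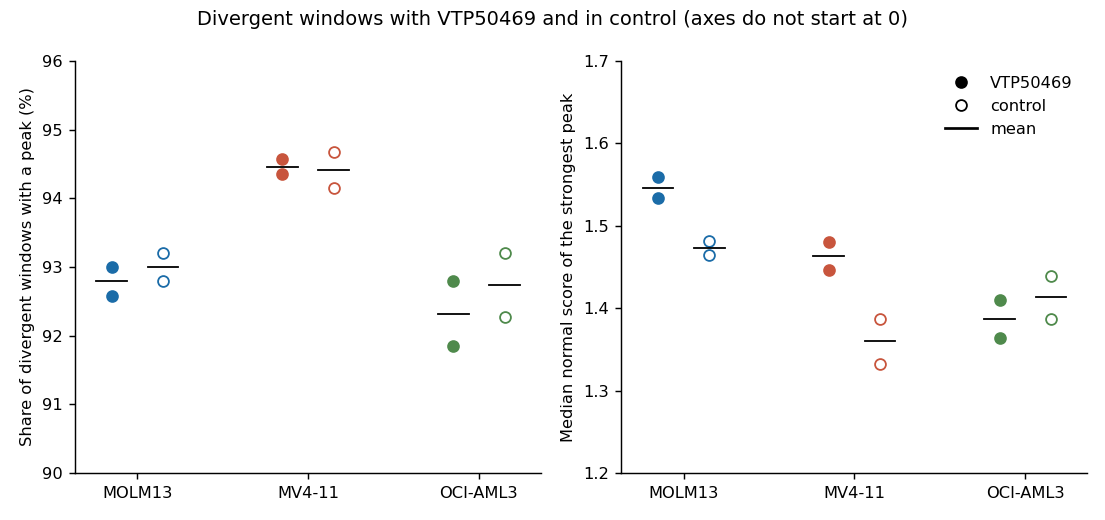
Share of divergent windows with a peak (%, left) and median normal score of the strongest peak (right) in each library, with VTP50469 (filled) left of control (open) for each line and the group means as bars. The axes do not start at 0. Shares overlapped in each line, and scores of 1.56 and 1.53 with VTP50469 lay above 1.46 and 1.48 in control in MOLM13.

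No divergent pair passed the test for a change in peak strength with VTP50469. Overlapping peaks of the libraries were merged into regions, and regions called in every library were ranked by the highest fold in them. The ranks, as normal scores, entered a limma fit over all regions with Benjamini-Hochberg adjustment. The difference of mean scores is called the shift. At an adjusted p of 0.05, limma called 0 of 900 regions at divergent windows in MOLM13 (0% of all 41518 regions tested), 0 of 928 in MV4-11 (0% of 70124), 0 of 906 in OCI-AML3 (0% of 30982) and 0 of 875 for the mean of the 3 lines (0% of 23338), with smallest adjusted p of 0.878, 0.739, 0.82 and 0.691. At an unadjusted p of 0.05, 7 of the 900 passed in MOLM13 (0.778%, against 5.61% of all regions), 11 of the 928 in MV4-11 (1.19%, against 6.58%), 16 of the 906 in OCI-AML3 (1.77%, against 5.8%) and 31 of the 875 in the mean of the 3 lines (3.54%, against 6.41%), a share below the background each time. Regions at other promoters were also below the background in each direction, with 1.12% lower and 0.682% higher in MOLM13. Their shares were 0.626% and 1.24% in MV4-11, 1.39% and 1.41% in OCI-AML3 and 1.85% and 2.3% in the mean of the 3 lines. By direction, the divergent shares were below these, except for 2.63% higher in the mean of the 3 lines. The median standard error of the shift for the mean of the 3 lines was 0.242 at divergent windows and 0.258 over all regions.

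The pairs nearest to a change are given as values. TRMT6/MCM8, a tRNA methyltransferase subunit and a helicase of DNA repair, had the smallest p for the mean of the 3 lines, with a shift of 0.83 (SE 0.236, limma adjusted p = 0.691). Its folds were 19.3 and 19 with VTP50469, against 14.1 and 14.1 in control, in MOLM13, 20.8 and 18.9 in treated and 16.9 and 15.3 in control MV4-11 libraries, and 12.1 and 10.1 in treated and 8.45 and 9.59 in control OCI-AML3 libraries. The folds of treated libraries exceeded those of the controls in each line, with no overlap, although folds were not normalised between libraries. PCLAF/TRIP4 and DPM1/MOCS3 had the next shifts above 0 (0.93 and 0.66), and CAPS2/GLIPR1L2, EXD1/CHP1 and MOAP1/LYSET those below 0 (−0.80, −0.65 and −0.67). In single lines the smallest p belonged to CFAP210/PHOSPHO2 (shift 1.41) and MPLKIP/SUGCT (−1.37) in MOLM13, TMEM209/SSMEM1 (1.55) and ADAT2/PEX3 (−0.86) in MV4-11, and ZNF461/ZNF567 (1.64) and ZSCAN29/TUBGCP4 (−1.47) in OCI-AML3.

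Few divergent windows lost or gained their peaks with VTP50469. A region is called lost when both controls and neither treated library had a peak, and gained in the reverse case. In MOLM13, 1 of 961 regions at divergent windows was lost and 3 were gained (background 1.3% lost and 3.22% gained of all regions). In MV4-11, 4 of 978 were lost and 1 was gained (background 2.75% and 1.92%), and in OCI-AML3, 5 of 1014 were lost and 3 were gained (background 2.57% and 1.32%). Most were side peaks of windows that stayed called in all 4 libraries. The divergent shares were below the background in each line and direction. Low shares were not confined to divergent windows, since regions at other promoters lay between the divergent shares and the background each time. At other promoters the lost shares were 0.734% (MOLM13), 0.815% (MV4-11) and 1.44% (OCI-AML3). The gained shares there were 0.989% (MOLM13), 0.531% (MV4-11) and 0.534% (OCI-AML3). Counted by window instead of by region, whole windows were lost at ZNF214/NLRP14 in MOLM13, with folds of 5.55 and 4.94 in the controls, at PES1/TCN2 in MV4-11, with 3.88 and 6.05, and at ALS2CL/TMIE and FOXL2/FOXL2NB in OCI-AML3, with 5.49 and 6.72 and with 3.44 and 6.42. FOXA1/TTC6, with a pioneer factor gene, was gained in MV4-11 with folds of 5.35 and 3.65 with VTP50469. It was also called in all 4 MOLM13 libraries, with 8.10 and 8.52 with VTP50469 and 6.01 and 7.07 in control, and in no OCI-AML3 library. No divergent window was lost or gained in more than 1 line. By window, 0.104%, 0.104% and 0.209% were lost in MOLM13, MV4-11 and OCI-AML3, against 0.412%, 0.448% and 0.830% of other promoters. In the same order, 0%, 0.104% and 0% were gained, against 0.657%, 0.340% and 0.328% of other promoters.

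More divergent pairs passed between lines than with VTP50469, in each direction at a share below that of all regions but not always below that of other promoters. These fits compared the 4 libraries of a line with the 4 of another over the 23338 regions called in all 12 libraries, of which 875 overlapped a divergent window. Regions without a peak in 1 or more libraries did not enter. Of these 875, 0 were lower and 5 (0.571%) higher in MOLM13 than in MV4-11 (limma adjusted p of 0.05 or less, background 3.09% lower and 1.34% higher), 12 (1.37%) were lower and 25 (2.86%) higher in MOLM13 than in OCI-AML3 (background 4.71% and 4.08%), and 50 (5.71%) were lower and 16 (1.83%) higher in MV4-11 than in OCI-AML3 (background 6.35% and 7.24%). Of the 7302 regions at other promoters, 0.534% were lower and 0.972% higher in MOLM13 than in MV4-11. The shares were 2.42% and 1.77% for MOLM13 against OCI-AML3, and 6.63% and 2.12% for MV4-11 against OCI-AML3. The share higher in MOLM13 than in OCI-AML3 was thus larger at divergent windows than at other promoters. For the divergent regions, the direction of the split between MV4-11 and OCI-AML3 changed with the scale. It was 24 lower and 53 higher by the rank of the −log10 q. By the rank among all peaks it was 9 and 25, and by the log2 fold 70 and 12. Likewise the median shift over the divergent regions was −0.23 between MV4-11 and OCI-AML3 (all regions −0.06), but 0.08 by the −log10 q, and that between MOLM13 and MV4-11 was 0.24 (all regions 0.07), but −0.00475 by the −log10 q. By the rank among all peaks the median of all regions itself moved to 0.139 between MV4-11 and OCI-AML3 and to 0.107 between VTP50469 and control in MOLM13. Called in the same direction on each of the 4 scales were 0 lower and 1 higher in MOLM13 than in MV4-11 (background 1.92% and 0.493%), 2 lower and 19 higher in MOLM13 than in OCI-AML3 (2.67% and 3.36%), and 2 lower and 12 higher in MV4-11 than in OCI-AML3 (1.93% and 4.5%). A region can be wider than the window, and the strongest peak lay over the window itself in every library for 801 of the 875. Among these 801, 0 lower and 3 higher, 11 lower and 21 higher, and 48 lower and 15 higher were called in the 3 comparisons. PRRT1/PPT2, the region with the smallest p between MOLM13 and MV4-11, was such a case, since a peak over its window was called in 2 libraries only.

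The pairs described next were chosen after their values were seen, as those called on all 4 scales and in each fit that left out 1 library, with the strongest peak over the window. They numbered 8 between MOLM13 and OCI-AML3, all higher in MOLM13, and 5 between MV4-11 and OCI-AML3, of which 3 were higher and 2 lower in MV4-11. NUFIP1/GPALPP1, the first gene of which encodes a factor of small nucleolar RNP assembly, and TRMT6/MCM8 are shown because they were higher than OCI-AML3 in both MLL1-rearranged lines. ZNF829/ZNF568 is shown because its peak was found in MV4-11 only. NUFIP1/GPALPP1 lies at chr13:44989471-44989538, TRMT6/MCM8 at chr20:5950533-5950652 and ZNF829/ZNF568 at chr19:36916291-36916332, with capitals and strand as above. In TRMT6/MCM8 the ETS motif and its reverse complement overlap, as do the SP motifs.
NUFIP1/GPALPP1: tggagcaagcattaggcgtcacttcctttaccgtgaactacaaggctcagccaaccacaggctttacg
TRMT6/MCM8: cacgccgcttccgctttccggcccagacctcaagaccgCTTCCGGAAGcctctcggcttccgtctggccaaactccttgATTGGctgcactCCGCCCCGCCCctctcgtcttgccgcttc
ZNF829/ZNF568: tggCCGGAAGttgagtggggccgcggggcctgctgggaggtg

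NUFIP1/GPALPP1 had folds of 16.0 and 20.7 with VTP50469 and 14.5 and 18.1 in control in MOLM13, of 18.9 and 14.6 with VTP50469 and 13.9 and 20.0 in control in MV4-11, and of 5.95 and 7.96 with VTP50469 and 4.90 and 9.24 in control in OCI-AML3. All 4 OCI-AML3 libraries lay below all 8 of the other lines. The shift was 2.71 between MOLM13 and OCI-AML3 (SE 0.398, limma adjusted p = 0.00124) and 2.03 between MV4-11 and OCI-AML3 (SE 0.398, limma adjusted p = 0.00485). Its stretch held none of the 8 motifs. TRMT6/MCM8, whose folds are given with the treatment, was higher by 1.5 in MOLM13 and by 1.26 in MV4-11 than in OCI-AML3 (limma adjusted p = 0.00575 and 0.0111). PMEL/CDK2, a melanosome protein and a cell cycle kinase, had folds of 9.94 and 11.9 with VTP50469 and 14.0 and 11.1 in control in MOLM13, of 12.4 and 14.7 in treated and 13.3 and 12.8 in control MV4-11 libraries, and of 7.07 and 6.21 in treated and 5.75 and 6.33 in control OCI-AML3 libraries. It was higher than in OCI-AML3 by 1.47 in MOLM13 and 1.34 in MV4-11 (limma adjusted p = 0.00738 and 0.00951), with no overlap.

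PALB2/DCTN5, a partner of BRCA2 and a dynactin subunit, had folds of 16.0 and 16.1 with VTP50469 and 18.2 and 14.7 in control in MOLM13, against 7.73 and 10.4 with VTP50469 and 9.79 and 9.24 in control in OCI-AML3. The shift was 1.66 (SE 0.362, limma adjusted p = 0.0112). PALB2/DCTN5 was also higher in MV4-11 than in OCI-AML3 (shift 1.57, limma adjusted p = 0.0115). That call held on all 4 scales, but only in 10 of the 12 fits that left out 1 library. EXOSC5/BCKDHA, an RNA exosome subunit and a branched-chain amino acid enzyme, TFPT/PRPF31, with a splicing factor, C19orf47/PLD3 and WASHC5/NSMCE2 were the remaining pairs higher in MOLM13, with shifts of 1.68, 1.38, 1.41 and 1.42. Lower in MV4-11 than in OCI-AML3 were CEP170/SDCCAG8, a pair of centrosomal proteins, and NMRK1/OSTF1, with a nicotinamide riboside kinase. CEP170/SDCCAG8 had folds of 8.44 and 8.90 with VTP50469 and 9.12 and 8.05 in control in MV4-11, against 9.96 and 9.86 with VTP50469 and 11.1 and 10.8 in control in OCI-AML3, and a shift of −1.18 (SE 0.264, limma adjusted p = 0.01). The libraries of the lines did not overlap, although the folds differed by little. NMRK1/OSTF1 had folds of 12.3 and 10.6 in treated and 10.2 and 10.6 in control MV4-11 libraries, against 12 and 12 in treated and 12.7 and 16.9 in control OCI-AML3 libraries. The folds of the lines overlapped, and the shift was −1.32 (SE 0.279, limma adjusted p = 0.00739).

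**Figure D5:**
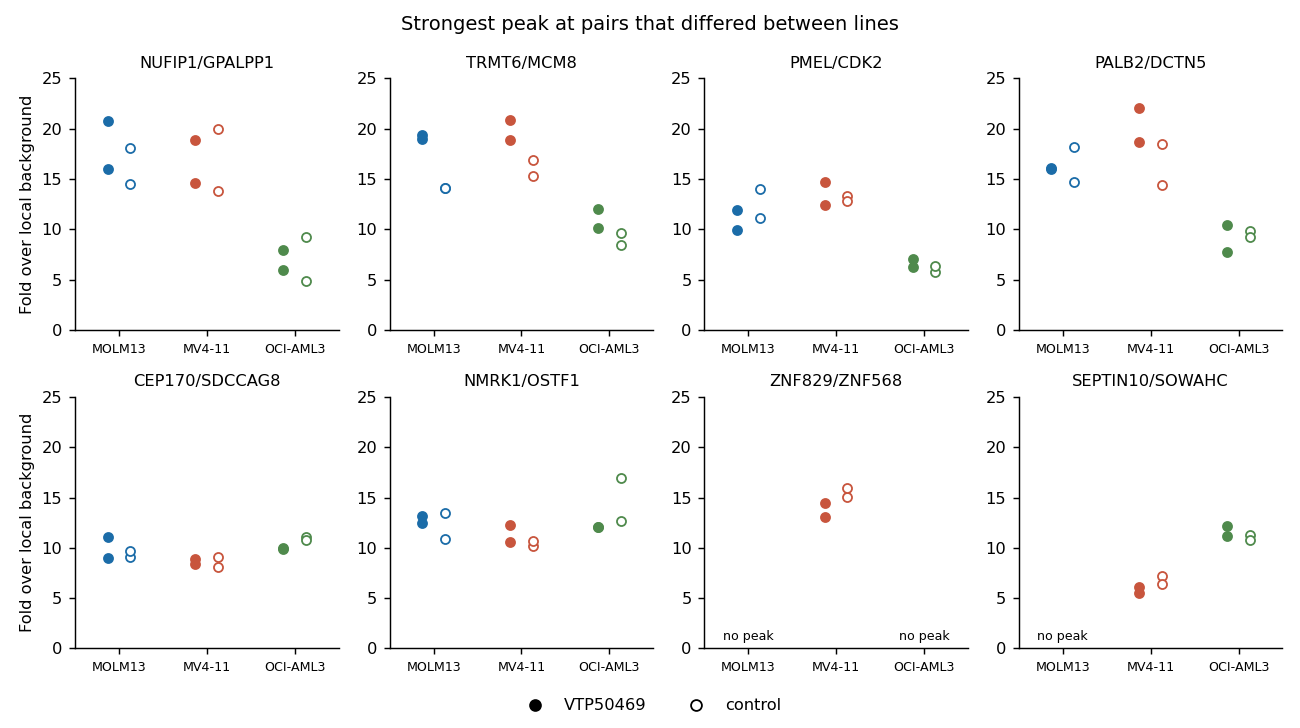
Fold of the strongest peak over the local background at 8 divergent pairs in the 12 libraries, with VTP50469 (filled) left of control (open) for each line. NUFIP1/GPALPP1 lay between 4.90 and 9.24 in OCI-AML3 and above 13 in the other lines, and ZNF829/ZNF568 had a peak in MV4-11 only.

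The pairs that differed between lines came from several of the gene lists. Of 36 regions with a DNA replication or repair gene, 0 were lower and 1 was higher in MOLM13 than in OCI-AML3 (background 4.71% and 4.08% of all regions), and 2 were lower and 1 was higher in MV4-11 than in OCI-AML3 (background 6.35% and 7.24%). Of 63 regions with a mitochondrial gene, 0 were lower and 2 higher in MOLM13, and 3 lower and 2 higher in MV4-11, against the same background. The split between MV4-11 and OCI-AML3 over all divergent regions depended on the scale, and that of the lists was not recomputed on the other scales. The list of chromatin regulators is not complete, and pairs such as ASH1L/MSTO1 and BRD9/TRIP13 are not on it. Of its 5 regions, too few to read as a share, 2 were lower and 1 was higher in MOLM13 than in OCI-AML3 (background 4.71% and 4.08%). The higher one was KDM5A/CCDC77, with a histone demethylase, whose shift was 1.55 (limma adjusted p = 0.0047), although its strongest peak did not lie over the window in every library. HNRNPA2B1/CBX3 and CBX5/HNRNPA1, which each join an RNA-binding protein to a heterochromatin protein, were lower in MOLM13, with shifts of −1.08 and −1.04 (limma adjusted p = 0.0222 and 0.0326). HNRNPA2B1/CBX3 had folds of 8.05 and 7.72 with VTP50469 and 7.34 and 7.05 in control in MOLM13, against 9.99 and 10.5 with VTP50469 and 11.0 and 10.8 in control in OCI-AML3, with no overlap. KDM5A/CCDC77 passed on all 4 scales, and neither of the 2 lower pairs did. Between MOLM13 and MV4-11, CXCL14/SLC25A48, RHOA/TCTA and SCO1/ADPRM were higher in MOLM13, with shifts of 1.21, 1.0 and 1.07 (limma adjusted p = 0.0348, 0.0424 and 0.047), and none of these passed on all 4 scales.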

How the data were processed

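Bulk ATAC-seq had been performed on MOLM13, MV4-11 and OCI-AML3, and 1 MACS2 peak list per library was deposited, called in each library separately. Per the labels, the authors aligned to hg38 and used deepTools, MACS2 2.1.0, Bowtie 1.1.2, Trimmomatic 0.33 and bcl2fastq 2.17, whereas TopHat is named in the supplementary methods. How read ends were shifted, duplicates handled and the peak threshold set is not given in the sources used here. Of the deposited columns, the score is 10 times the −log10 q cut to a whole number, the ratio is the fold of the summit over the local background, the −log10 p and the −log10 q describe the summit, and the summit offset in bp is counted from the peak start. Nothing had been normalised between libraries, and no read counts or sequencing totals were used, so depth and its precision are unknown. Columns of samples not used numbered 0.

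Start sites were the 5′ ends of RefSeq genes (GRCh38.p14). Strand came from the promoter table for 15100 genes and from GENCODE for 3683, and 339 protein-coding genes without a strand were left out. An overlap of 1 bp counted. Library values were compared by exact permutation tests, and regions by limma 3.58.1 in R 4.3.3 (moderated, two-sided, Benjamini-Hochberg over all regions). Python 3.11.15, numpy 2.4.6, pandas 2.3.3, scipy 1.17.1 and matplotlib 3.10.9 were used, and the tests were also run on simulated data. Alternatives were the rank of the −log10 q, the log2 fold, a minimum −log10 q of 5, an overlap of 100 bp, a spacing of at most 500 bp, other comparison sets, a replicate block and leaving out each library. Ranks among all peaks, start sites of the promoter table and the restriction to strongest peaks over the window were added after seeing the data.

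Named pairs were textbook pairs, the 5 strongest and weakest, the 3 smallest p per treatment direction and 5 per line direction, pairs called in some lines only, lost or gained pairs, list members and those at the limit. Some named pairs are not reported here. Members and lists were chosen with earlier results of these data known. Nothing in the labels says that the 2 libraries of a group came from separate cultures, so p-values measure the spread between these libraries.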

Additional observations from a re-analysis of the deposited data

How the results depend on the processing

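The excess of divergent windows over other promoters kept its direction and passed under every alternative tried for share, strength and width. Leaving out 1 library at a time gave 40.9 to 41.2 points, 0.315 to 0.324 in score and 120 to 125 bp. For the share with VTP50469 the range was −0.348 to −0.0348 points, and taken as a difference to other promoters of the same library it turned to 0.186 points (exact permutation p = 0.639). The strength difference was 0.041 to 0.0594 without 1 library, and it passed with peaks of a −log10 q of at least 5 (0.0548) and without OCI-AML3 control 2 (0.0588) or VTP50469 2 (0.0579).

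Counts between lines depended on single libraries. Between MOLM13 and MV4-11, 5 called pairs became 1 without MOLM13 VTP50469 1 or 2 or any MV4-11 library (range 1 to 5), 16 by the rank of the −log10 q, 2 with a −log10 q of at least 5, 1 by the rank among all peaks and 3 with the strongest peak over the window. Between MOLM13 and OCI-AML3, 37 became 18 to 32, with 20, 19, 19 and 18 without MOLM13 control 1, control 2, VTP50469 1 and VTP50469 2 and 21, 24 and 23 without OCI-AML3 control 1, control 2 and VTP50469 2, and 85 by the rank of the −log10 q. Between MV4-11 and OCI-AML3, 66 became 13 to 58, with 37, 13, 31 and 14 without MV4-11 control 1, control 2, VTP50469 1 and VTP50469 2 and 27, 41 and 30 without OCI-AML3 control 1, control 2 and VTP50469 2, and 34 by the rank among all peaks. The cause was not tested. INTS9/HMBOX1 reversed to 0.11 by the rank of the −log10 q (limma adjusted p = 0.813). Of the values for named pairs, 613 kept their side of the threshold, 69 no longer passed and 1 reversed. The first count includes the pairs named from the treatment fits, which did not pass to begin with and had no pass to lose.

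Replicate numbers did not pair the libraries, with correlations of deviations of 0.0362, 0.0204 and 0.00786. With a replicate block the treatment test gave p = 0.656 for share and 0.188 for strength (exact permutation tests), 0 regions passed in each treatment fit, and 4, 37 and 66 pairs passed between lines. Weak sites fall below the peak callers' threshold, and 2 libraries per group limit every comparison within a line.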
